A study of Arabidopsis thaliana with 4 samples.

Results

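Cytochromes P450 are haem enzymes that insert an oxygen atom into small molecules, and plants use them to build and break down lignin precursors, defence compounds, pigments, waxes and hormones. Their names give the family as a number, the subfamily as a letter and the gene as a further number. CYP71B is a large subfamily of the CYP71 clan, a plant group rich in enzymes of specialised metabolism, and many of its genes lie side by side as tandem copies. Most plant P450s sit in the membrane of the endoplasmic reticulum and take their electrons from NADPH-dependent reductases.

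The genes described here are those whose symbol in the array's annotation has the form CYP, 2 or 3 digits, a capital letter and a digit, and which have a probe set assigned to that gene alone. This gave 23 genes of the 13356 with such a probe set, each with 1 probe set. Of the 23, 19 belong to CYP71B, and the other 4 are CYP51G2, CYP78A9, CYP79A2 and CYP84A4. The table of current gene names, of the TAIR10.1 assembly, lists 236 genes with a symbol of the same form and 36 with a CYP71B symbol, so the measured genes do not stand for the whole superfamily. Probe sets assigned to several genes were left out, and 2 of these named a P450. Cyclophilins, which share the letters CYP, CYP718, whose symbol lacks the subfamily letter, and the flavonoid hydroxylase TT7 were not members.

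RNA came from full-grown source leaves of non-flowering wild-type Arabidopsis thaliana, ecotype Col-0, grown with a day of 14 h and a night of 10 h. Leaves were detached as the day ended and stood with their petioles for 13 h in the dark in 2 mM MES buffer that held either 100 mM sorbitol, the control sugar alcohol, or 100 mM sucrose. Each group had 2 Affymetrix ATH1 arrays, numbered 1 and 2, and the labels do not say whether these came from separate plants, so p-values measure spread among arrays alone, which may be technical. No array of leaves before the incubation was analysed here, so every difference is sucrose-fed against sorbitol-fed leaf.

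The tissue label was checked on 4 measured leaf genes, the Calvin cycle genes PRK and RCA and the photosystem genes LHCB4.1 and PSAN. Their summed intensity was 15340 on sorbitol 1 and 13555 on sorbitol 2, while sucrose 1 had 6072 and sucrose 2 had 3940. All 4 were lower in sucrose, and PRK and PSAN passed the test described below. Of the markers for other tissues, only the root gene EXPA7 and the guard cell gene FMA had a probe set of their own. EXPA7 had intensities between 3.4 and 20.8 and was too dim to be tested. FMA had 37.0 to 55.6 and did not pass (limma adjusted p = 0.643). Both were lower on the sucrose arrays than on the sorbitol arrays. In whole leaves, fewer cells of a type and less RNA per cell cannot be told apart, and the part of these markers in the P450 values was not tested. A control probe set for 25S ribosomal RNA had intensities of 2163 and 1255 on the arrays numbered 1, sorbitol and sucrose, against 14.4 and 56.6 on those numbered 2. Changes are therefore also given within each replicate number, as sucrose 1 against sorbitol 1 and sucrose 2 against sorbitol 2.

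In these leaves 7 of the 10 P450 genes bright enough to test were lower in sucrose, against 48.4% of all probe sets tested. The other 3 were higher, and none of the 10 passed the test. The lowest was CYP71B24, at a log2 change of -1.71, and the highest CYP71B26, at 0.44. Their median log2 change was -0.63, beside 0.02 over the 13648 probe sets tested. It was -0.35 without the array sorbitol 2 and -0.34 without sucrose 2. With all arrays the median was -0.21 within replicate number 1 and -0.70 within number 2, beside 0.00 and 0.01 over all probe sets tested. The size of the median thus differed between the pairs of arrays, and this difference was not tested. Among the 7 lower genes, CYP71B35 was bright enough to test only through its sorbitol values.

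A gene was tested where its mean log2 intensity reached the 40th percentile of all probe sets, an intensity of 18.6. The test was limma on log2 intensity across all 13648 such probe sets, with Benjamini-Hochberg adjustment and a threshold of 0.05. Among the 10 genes, 0 were called higher and 0 lower, against 0.366% and 0.923% of all probe sets tested. At an unadjusted p under 0.05, limma gave 1 of the 10, CYP71B24, against 20.7% of all probe sets tested. Both sucrose values lay below both sorbitol values for 5 of the 10 and above them for 1, against 26.2% and 26.1% of all probe sets tested. At least a 2-fold change in the same direction within both replicate numbers was met by 0 of the 10, higher or lower, against 4.62% and 5.52%.

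**Figure D1:**
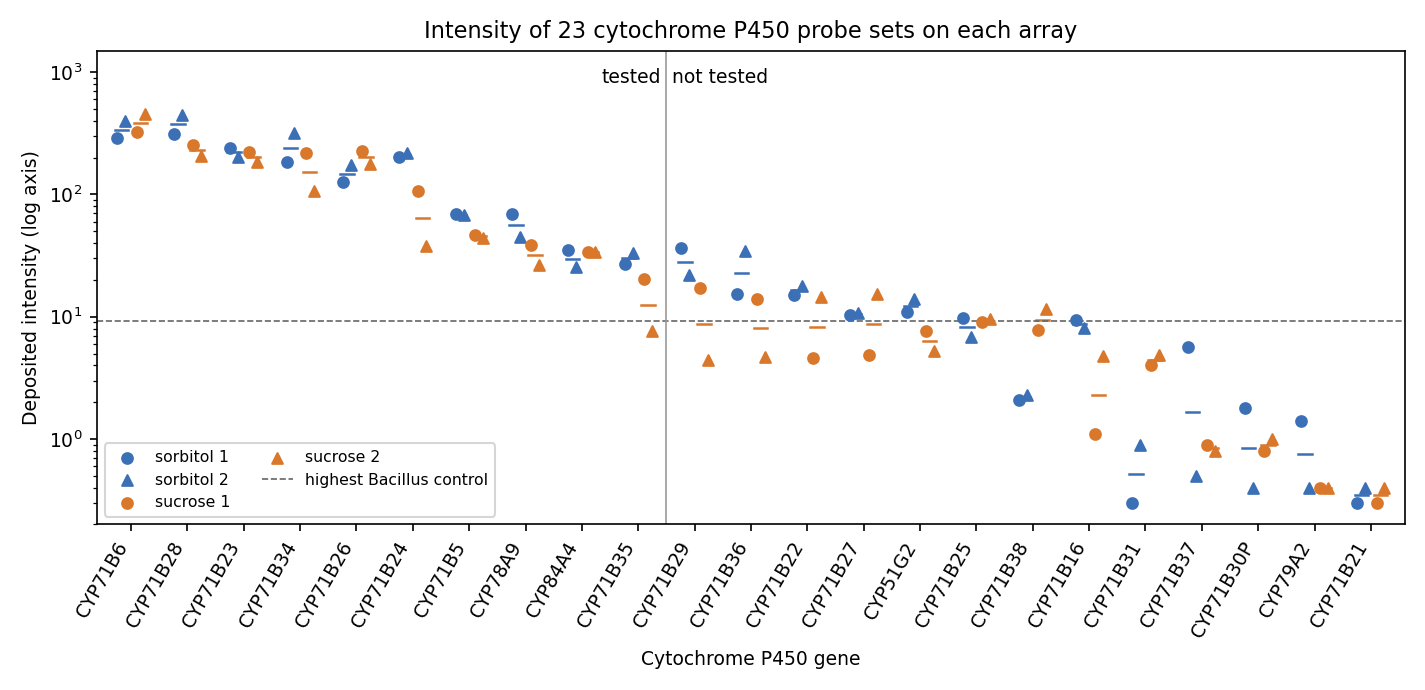
Deposited intensity (log axis) of the 23 P450 probe sets on each of the 4 arrays, circles for replicate number 1 and triangles for number 2, blue for sorbitol and orange for sucrose, with a short bar at the geometric mean of each group. The 10 genes left of the vertical line were tested, and the dashed line is the highest intensity of the Bacillus control probe sets, 9.3.

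Intensities of different probe sets depend on their probes, so the genes are not ranked against each other by level. As a guide to the dim end, the highest intensity among 27 probe sets for Bacillus spike-in genes was 9.3. All 4 arrays exceeded this level for 9 of the 23 genes, some of the arrays did for another 9, and none did for 5. The 10 tested genes had intensities from 7.7 to 457.6, and the 13 untested ones from 0.3 to 36.3. CYP71B35 lay just inside the limit for testing, with a mean intensity of 19.4, and CYP71B29 just outside it, with 15.7. CYP71B35 reached the limit through sorbitol alone, with a mean log2 intensity of 4.91 there and 3.64 in sucrose. On that scale the limit is 4.22. The counts and medians of tested genes above and below include CYP71B35, so its lower value in sucrose there is tied to how it was let in.

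CYP71B24 had the largest difference among the tested genes. The arrays of sorbitol-fed leaves gave 202.8 and 218.2, and those of sucrose-fed leaves 107.8 for number 1 and 38.2 for number 2. The sorbitol arrays lay close together, while the sucrose arrays differed from each other more than the sorbitol arrays did, and both lay below sorbitol. The mean log2 intensity was 7.72 ± 0.07 (SD, n = 2) in sorbitol and 6.004 ± 1.06 in sucrose, a log2 change of -1.71 ± 0.51 SE with a 95% interval from -2.95 to -0.475 that is not adjusted for the number of genes. After adjustment it did not pass (limma adjusted p = 0.143). Within the replicate numbers the change was -0.91 and -2.51. Without the array sucrose 1 the change was -2.46 and passed (limma adjusted p = 0.0203), in a fit that called 6.95% of all probe sets against 1.29% with all 4 arrays. Without sucrose 2 it was -0.96 and did not pass (limma adjusted p = 0.248).

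CYP71B35 had intensities of 27.2 and 33.3 in sorbitol and 20.2 and 7.7 in sucrose. Both sucrose values were the lower ones, and that of sucrose 2 lay below the Bacillus control level. Its log2 change was -1.27 ± 0.55 SE, with an interval from -2.60 to 0.06 (limma adjusted p = 0.260) and changes of -0.43 and -2.11 within the replicate numbers. With values below 9.3 raised to it, the change was -1.14.

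CYP71B34 had intensities of 183.1 and 317.9 in sorbitol and 217.3 and 106.2 in sucrose. The groups overlapped, since sucrose 1 exceeded sorbitol 1. Its log2 change of -0.67 ± 0.47 SE (limma adjusted p = 0.476) was made of 0.25 in replicate number 1 and -1.58 in number 2, so the direction differed between the pairs.

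CYP71B28 had 311.6 and 448.6 in sorbitol against 254.1 and 208.2 in sucrose. The groups did not overlap, and the log2 change was -0.70 ± 0.33 SE (limma adjusted p = 0.298), with -0.29 and -1.11 within the numbers. CYP71B5 had 68.7 and 68.5 in sorbitol against 46.7 and 44.3 in sucrose. Here arrays of the same group were nearly equal, and the changes within the numbers, -0.56 and -0.63, were alike. Its log2 change was -0.59 ± 0.30 SE (limma adjusted p = 0.336); its 2 groups spread little, and limma's error borrows from all probe sets.

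CYP71B26 was the only tested gene with both sucrose values above both sorbitol values. Its intensity was 126.9 and 173.1 in sorbitol and 227.1 and 178.9 in sucrose. Sorbitol 2 and sucrose 2 were close to each other, so that the changes within the numbers were 0.84 and 0.05. The log2 change of 0.44 ± 0.33 SE did not pass (limma adjusted p = 0.503).

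CYP71B23 and CYP71B6 differed little between the sugars. CYP71B23 had 241.9 and 201.6 in sorbitol against 221.7 and 185.4 in sucrose, overlapping groups, with a log2 change of -0.12 and an interval from -0.86 to 0.62. CYP71B6, an enzyme that oxidises indole-3-acetonitrile in the indole defence pathways, had 289.8 and 397.5 against 324.1 and 457.6. In CYP71B6 both sugars gave a higher value on the array numbered 2, the groups overlapped, and the change was 0.18 with an interval from -0.65 to 1.01. For both genes a 2-fold fall or more lay outside the interval. A 2-fold rise lay outside the interval of CYP71B23 but just inside that of CYP71B6.

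**Figure D2:**
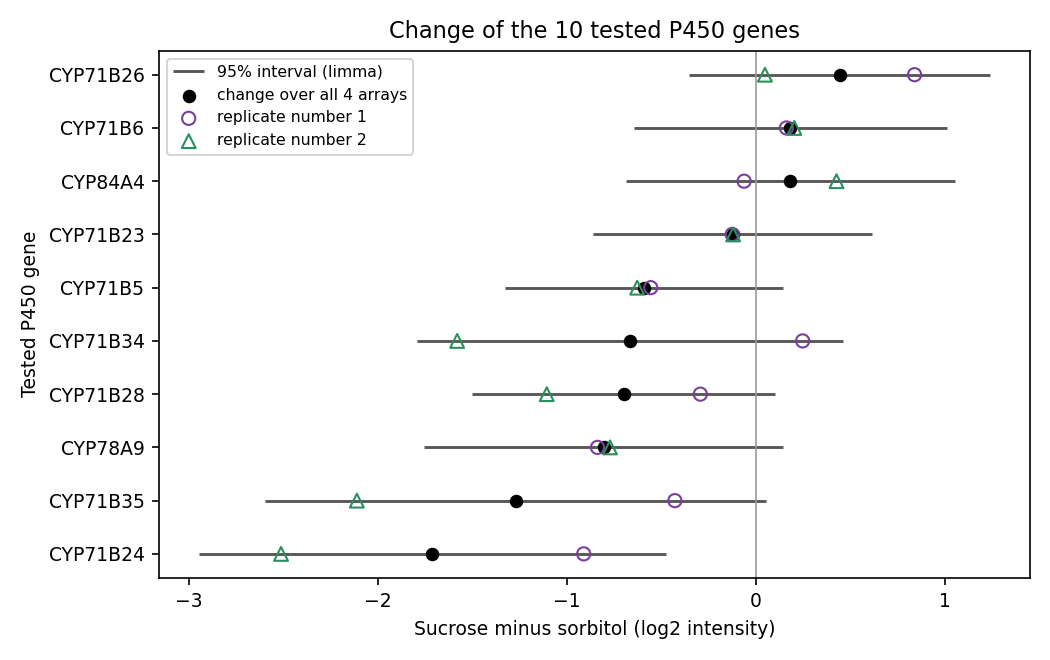
Sucrose minus sorbitol in log2 intensity for the 10 tested P450 genes, with filled points for the change over all 4 arrays, lines for limma's 95% interval, circles for replicate number 1 and triangles for number 2. The interval of CYP71B24, from -2.95 to -0.475, is the only one that leaves out 0, before adjustment over all probe sets.

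Outside CYP71B, both tested genes had known roles. CYP78A9, of a subfamily that acts on organ size and known for its effect on fruit and seed growth, had intensities of 69.4 and 45.1 in sorbitol against 38.8 and 26.4 in sucrose. The groups did not overlap, although sorbitol 2 and sucrose 1 were close, and the changes of -0.84 and -0.77 within the numbers were alike. Its log2 change was -0.81 ± 0.39 SE (limma adjusted p = 0.312). CYP84A4, an enzyme of arabidopyrone synthesis from phenylpropanoids and a relative of the lignin enzyme ferulate 5-hydroxylase, had 35.3 and 25.3 in sorbitol and 33.8 and 34.0 in sucrose. Both sucrose values lay between the sorbitol values, and the change was 0.18, with an interval from -0.69 to 1.05.

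**Figure D3:**
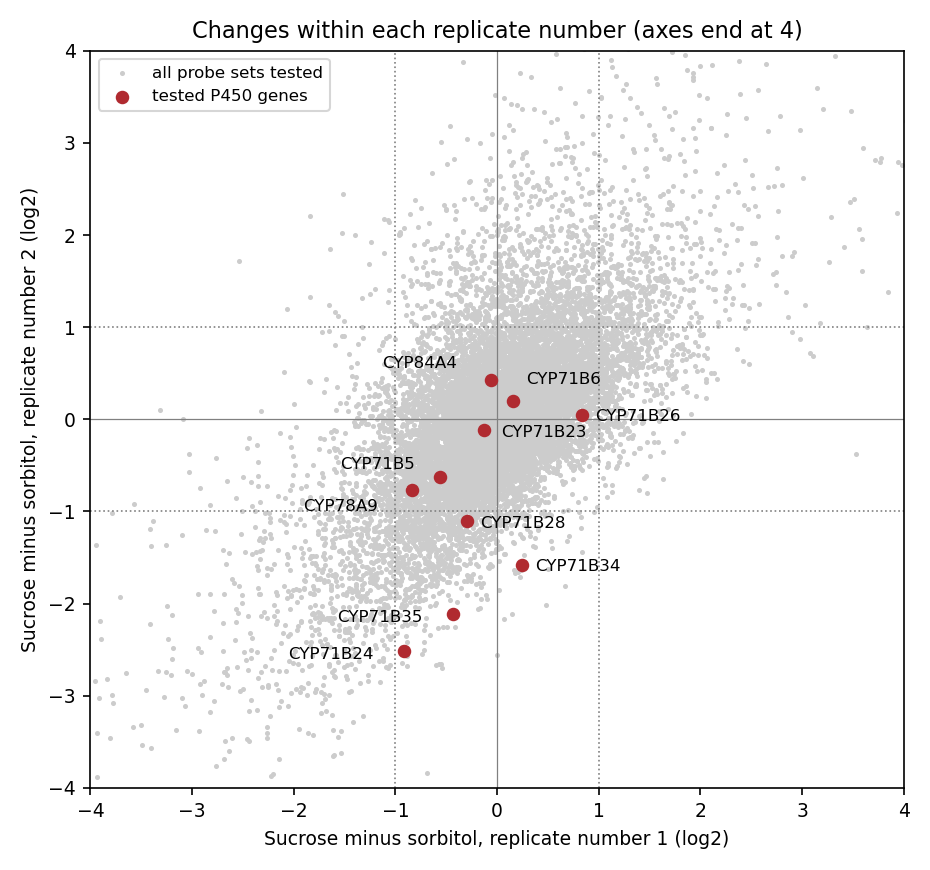
Log2 change within replicate number 1 (horizontal) against number 2 (vertical) for all probe sets tested (grey) and the 10 tested P450 genes (red), with dotted lines at a 2-fold change. CYP71B24, CYP71B34, CYP71B35 and CYP71B28 lie past the 2-fold line for number 2 but not for number 1, and 111 grey points lie beyond the axes.

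The change was the lower one in replicate number 2 for 6 of the 10 tested genes, against 52.5% of all probe sets tested, and the direction was the same in both numbers for 8 of 10, against 70.5%. Each pair shares its arrays across all genes, so these counts describe the arrays and are no test. In CYP71B24, CYP71B28, CYP71B34 and CYP71B35 the change in number 2 passed 2-fold and that in number 1 did not, whereas CYP71B5, CYP71B6, CYP71B23 and CYP78A9 had nearly equal changes in both.

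Most of the CYP71B genes measured here are neighbours. In the gene order of TAIR10.1, 11 of them fall in a single run on chromosome 3 from CYP71B16 (AT3G26150) to CYP71B37 (AT3G26330). The run spans 24 genes, 18 with P450 symbols and 6 without, and 7 of the 18 had no single-gene probe set. Of the 11 measured genes 5 were tested, with 4 lower and 1 higher in sucrose and a median log2 change of -0.67. CYP71B35, among the 4, reached the limit for testing only through its sorbitol values. Over all probe sets tested, 48.4% were lower and the median was 0.02. Within this run the tested genes differed among themselves. CYP71B23 and CYP71B24, with 1 gene between them, had changes of -0.12 and -1.71, and CYP71B26 and CYP71B34, also with 1 gene between them, had 0.44 and -0.67.

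CYP71B34, CYP71B35, CYP71B36 and CYP71B37 follow each other with no gene between them. The first 3 had small changes in replicate number 1, of 0.25, -0.43 and -0.13, and larger ones in number 2, of -1.58, -2.11 and -2.89. The last 2 rest on sucrose values below the Bacillus control level and are uncertain in size. With values below 9.3 raised to it they were -1.84 and -1.90. CYP71B36 was too dim to be tested, with 15.2 and 34.8 in sorbitol and 13.9 and 4.7 in sucrose. On sucrose 2 the intensity was the lowest of the 4 arrays for each of these 3 genes, and on sorbitol 2 it was the highest. This order was not particular to them. Among the other tested P450 genes, CYP71B24 and CYP71B28 had it and the rest did not. The carotenoid gene LYC, which is no P450, had it as well. Its share over all probe sets was not counted. CYP71B37 did not exceed the Bacillus control level on any array, with intensities from 0.5 to 5.6. Tandem copies can be alike in sequence, and whether a probe set also binds transcripts of a neighbour was not tested.

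**Figure D4:**
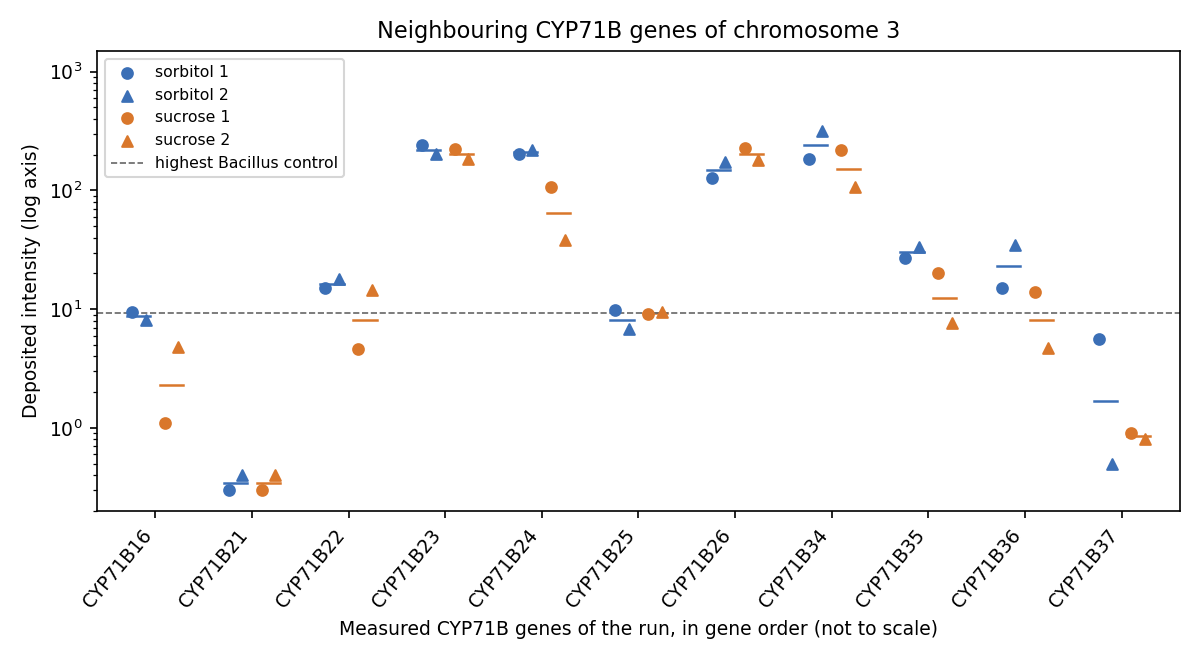
Deposited intensity (log axis) on each array for the 11 measured CYP71B genes of the run on chromosome 3, in gene order and not to scale, with symbols as in the plot of all 23 genes and a short bar at each group's geometric mean. CYP71B16, CYP71B22, CYP71B24, CYP71B35 and CYP71B36 have both sucrose values below both sorbitol values, and of these CYP71B16, CYP71B22 and CYP71B36 were too dim to be tested. CYP71B21, CYP71B23, CYP71B25, CYP71B34 and CYP71B37 have overlapping groups, and CYP71B26 has both sucrose values above.

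The remaining genes of the run were dim. CYP71B22 had 15.1 and 17.8 in sorbitol against 4.6 and 14.5 in sucrose, so that both sucrose values were lower and 1 of them lay below the control level. CYP71B16 had 9.4 and 8.1 against 1.1 and 4.8, with a single value just above that level. CYP71B25 stayed between 6.8 and 9.8, with overlapping groups. CYP71B21 was listed at 0.3 or 0.4 on every array.

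Shorter runs were found at another 2 places. On chromosome 1, CYP71B27, CYP71B28 and CYP71B29 lie within 4 consecutive genes, all with P450 symbols. CYP71B29 had 36.3 and 22.0 in sorbitol and 17.2 and 4.4 in sucrose. Its values in sucrose were both lower, with changes of -1.08 and -2.32 on the log2 scale within the numbers, past 2-fold in each pair. Sucrose 2 lay below the Bacillus control level, and with values raised to it the second change was -1.24. With no filter on dim probe sets it did not pass limma, in a fit that called only 0.0132% of all probe sets. That result therefore says little about the gene. CYP71B27 had 10.4 and 10.8 in sorbitol, and its sucrose values of 4.9 and 15.4 lay on either side of them.

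The other run, elsewhere on chromosome 3, holds CYP71B5, CYP71B30P and CYP71B31 within 4 genes. CYP71B31, linked in flowers to the metabolism of linalool, a scent terpene, was listed at 0.3 and 0.9 in sorbitol and at 4.0 and 4.9 in sucrose. All 4 values lay below the Bacillus control level, so no fold is given. CYP71B30P, whose final letter marks a pseudogene in P450 nomenclature although the RefSeq table lists it as protein-coding, was listed between 0.4 and 1.8. The 3 neighbours thus comprised a gene above the control level on all arrays and a pair below it.

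CYP71B38, which has no measured neighbour, had intensities of 2.1 and 2.3 in sorbitol against 7.8 and 11.5 in sucrose. The arrays of a group were alike and both sucrose values were the higher ones, with 1 of the 4 values above the control level. The difference within each replicate number, 1.89 and 2.32 log2 units, rests on values below that level and is uncertain in size. Both sorbitol values and that of sucrose 1 lay below it. With values below 9.3 raised to it, the changes were 0 and 0.31. CYP51G2, a relative of the sterol demethylase CYP51G1 that the RefSeq table lists as a transcribed pseudogene, had 10.9 and 14.0 in sorbitol and 7.6 and 5.2 in sucrose. Its sucrose values lay below the control level and its sorbitol values above it. CYP79A2, which turns phenylalanine into the oxime precursor of benzylglucosinolate, was listed between 0.4 and 1.4, and this level gives no comparison between the sugars.

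Roles were listed for 89 P450 genes, from lignin, glucosinolate and camalexin synthesis to brassinosteroid, gibberellin and abscisic acid turnover. Of these, 6 were members, namely CYP51G2, CYP71B6, CYP71B31, CYP78A9, CYP79A2 and CYP84A4, and 3 were tested. Hormone turnover and carotenoid synthesis had no member. Of 72 further genes, of these pathways or listed as P450 reductases or cytochrome b5, 5 had a single-gene probe set. All 5 were tested, 2 were higher and 3 lower in sucrose, and limma called 0 in either direction.

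Among these 5, AT3G02280, a diflavin reductase, was the only measured gene of the 3 listed as P450 reductases. Whether it passes electrons to P450s was not tested. It had 28.7 and 15.3 in sorbitol and 17.6 and 35.8 in sucrose, overlapping groups, with a log2 change of 0.26. HCT, which makes the shikimate ester that the lignin P450 CYP98A3 oxidises, had a change of -0.26. UGT74B1, a glucosyltransferase of glucosinolate synthesis, had 0.28, and BCAT4, an aminotransferase of the same pathway, -0.16. The lycopene cyclase LYC of carotenoid synthesis had 533.3 and 589.8 in sorbitol against 334.7 and 200.6 in sucrose, a log2 change of -1.11 that did not pass (limma adjusted p = 0.158).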

How the data were processed

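The deposited intensities were made with MAS5 by the authors, per the submitters' processing notes; its version and settings are not given in the sources used here. The table holds linear values for 22746 probe sets besides 64 controls. Each array's mean, trimmed by 2% at each end, was 100.0, so no further normalisation was applied. Detection calls were not used here, and the number of arrays limits the precision.

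Values were floored at 0.1 and converted to log2. Of these probe sets, 13648 passed the filter. Sucrose was compared with sorbitol across them with limma 3.58.1 in R 4.3.3 (lmFit, and eBayes with a trend). Log2 changes are sucrose minus sorbitol. Probe sets were named from the platform annotation, which gives 13513 of them a single gene, and all 23 member symbols equal the current TAIR10.1 symbol. Gene order counts protein-coding genes and pseudogenes of that assembly; runs allow up to 11 such genes between members. Positions and sequences are not given.

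The members, role lists, tests and alternatives were chosen with earlier results of these data known. All 23 members are named. Alternatives were other filters, a pseudocount of 5.3, dim values raised to 9.3, quantile normalisation, median centring, no trend, a replicate block, each array left out, and a mean over probe sets.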

Additional observations from a re-analysis of the deposited data

How the results depend on the processing

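The counts of called P450 genes, 0 higher and 0 lower, were the same under every alternative except for 1 lower gene, CYP71B24, with the replicate number as a block and without sucrose 1. With the replicate block its limma adjusted p was 0.00776, where 17.1% of all probe sets were called. What the number stands for is not in the labels. Arrays with the same number deviated together from their group means (correlation 0.43 across probe sets), but with only 2 pairs this does not show pairing. Leaving out each array gave 0 to 1 lower genes, the 1 in the fit without sucrose 1, which called 6.95% of all probe sets. The other such fits called at most 0.74%, and the fit of all 4 arrays 1.29%. In those fits the lone array of a group is assumed to vary like the other group. Where such a fit called few probe sets, the absence of a call says little about a gene. With no filter only 0.0132% of all probe sets were called, so 0 called P450 genes there say little. In that setting 2 genes (CYP71B31 and CYP71B38) were at least 2-fold higher and 1 (CYP71B29) at least 2-fold lower in both numbers. The shares of all probe sets were 5.26% and 5.58%. These genes appeared because dim genes were then counted. All values of CYP71B31 and 3 of the 4 of CYP71B38 lay below the Bacillus control level, so their sizes are not measured. Over all alternatives the median change of the tested genes lay between -0.74 and -0.34. The lowest of these was without sucrose 1 and the highest without sucrose 2. The direction turned where a change was small. CYP71B6 had -0.046 without sorbitol 1 and -0.067 without sucrose 2, and ranged up to 0.43 without the other arrays. CYP71B23 had 0.0081 and 0.0057 in the same fits, and ranged down to -0.25. CYP84A4 had -0.058 without sorbitol 2 and ranged up to 0.42. Filters, scalings and the variance model turned no tested gene.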
